A study of Mus musculus with 6 samples.

Results

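The 32 genes described here mark macrophages and microglia, the phagocytes of embryonic tissue and of the nervous system. They were measured in eye tissue of mouse embryos at embryonic day 13.5 labelled as retinal pigment epithelium (RPE), the epithelium that faces the photoreceptor side of the retina. The series holds 3 arrays of albino embryos, set against 3 arrays of pigmented control embryos. For each array, 3 to 4 littermates were pooled, and the arrays are given as biological replicates. Whether the pools came from different litters is not stated, so p-values measure the spread between these pools. The labels name neither the strains nor the albino allele, and give no treatment. The genes were chosen by name as markers, with earlier results of these data known. Their shares beside those of all probe sets are therefore descriptions and not tests. All 32 had a probe set that the platform annotation assigns to that gene alone, out of 18193 such genes. According to the labels the eyecup was stripped of lens, cornea, neural retina and surrounding tissue, though a description also speaks of the eye region as a whole.

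Tissue macrophages arise early in embryonic life from yolk sac and fetal liver progenitors. They need signalling through the receptor CSF1R and the transcription factor PU.1, encoded by Spi1. In the developing eye they lie in the mesenchyme and along vessels around the optic cup, and microglia enter the retina. They engulf dying cells, and they are a main source of C1q, the protein that starts the classical complement pathway.

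Values are log2 RMA values, and a difference is the albino mean minus the pigmented mean. The genes were taken as 11 general leukocyte genes, the 3 C1q genes, 7 tissue macrophage genes and 11 further phagocyte and microglia genes. Each gene was read from its probe set with the highest mean over the 6 arrays, and was tested where that mean was at least 5. This left 28 tested genes. The other 4 were Irf8, Itgam, Cd14 and Cd163, with means of 4.92, 3.02, 4.42 and 2.38. Just inside the minimum stood Cd68, with a mean of 5.06.

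Markers of other cell types were measured on the same arrays. Skeletal muscle markers were higher in albino pools for 11 of 11 tested genes, with array means of 8.65 to 9.35 in albino pools and 7.21 to 8.14 in pigmented pools. RPE identity genes had array means of 9.67 to 9.86 in albino pools and 9.82 to 10.06 in pigmented pools, with 12 of 13 tested and Rpe65 below the minimum. Of the 12, 11 were lower in albino pools and 1 higher, with a median difference of -0.14. For 4 of the 12, all 3 albino arrays lay below all 3 pigmented arrays, where 3.44% of all probe sets were so placed. Y-linked genes had means of 7.06 to 7.99 on the albino arrays, but of 7.39, 2.32 and 5.98 on pigmented arrays 1, 2 and 3. In bulk tissue a smaller number of cells of a type and less RNA per cell cannot be told apart.

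Of the 28 tested macrophage genes, 20 had a higher mean in albino pools, 7 a lower mean and 1 the same mean. The median difference was 0.11 log2 units. Over all 12098 tested genes 63.8% were higher in albino pools and the median was 0.04. Both moved with the setting: the macrophage count was 14 of 28 with the Y-linked mean as a covariate (43.8% of all genes, median -0.02), 18 when albino replicate 1 was left out (44.9%, median -0.015) and 18 after cyclic loess (51.8%). With the dim genes added, 22 of the 32 were higher and 9 lower. None of the 28 passed the adjusted threshold of 0.05 in limma, nor did any of 23591 probe sets (0% called). At an unadjusted p under 0.05 there were 4 macrophage genes higher in albino pools (14.3% of 28, where 3.22% of all probe sets were called in that direction) and 1 lower (3.57%, against 1.46%). With the replicate number as a block these counts were 9 higher (32.1%, against 11.9% of all probe sets) and 2 lower (7.14%, against 6.12%), and again none passed after adjustment. In either direction this made 5 of 28 without the block, where 4.68% of all probe sets were called. The count of 4 became 2 when albino replicate 3 or pigmented replicate 3 was left out (2.78% and 2.39% of all probe sets), and also 2 when the Y-linked mean entered as a covariate (1.96%).

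**Figure D1:**
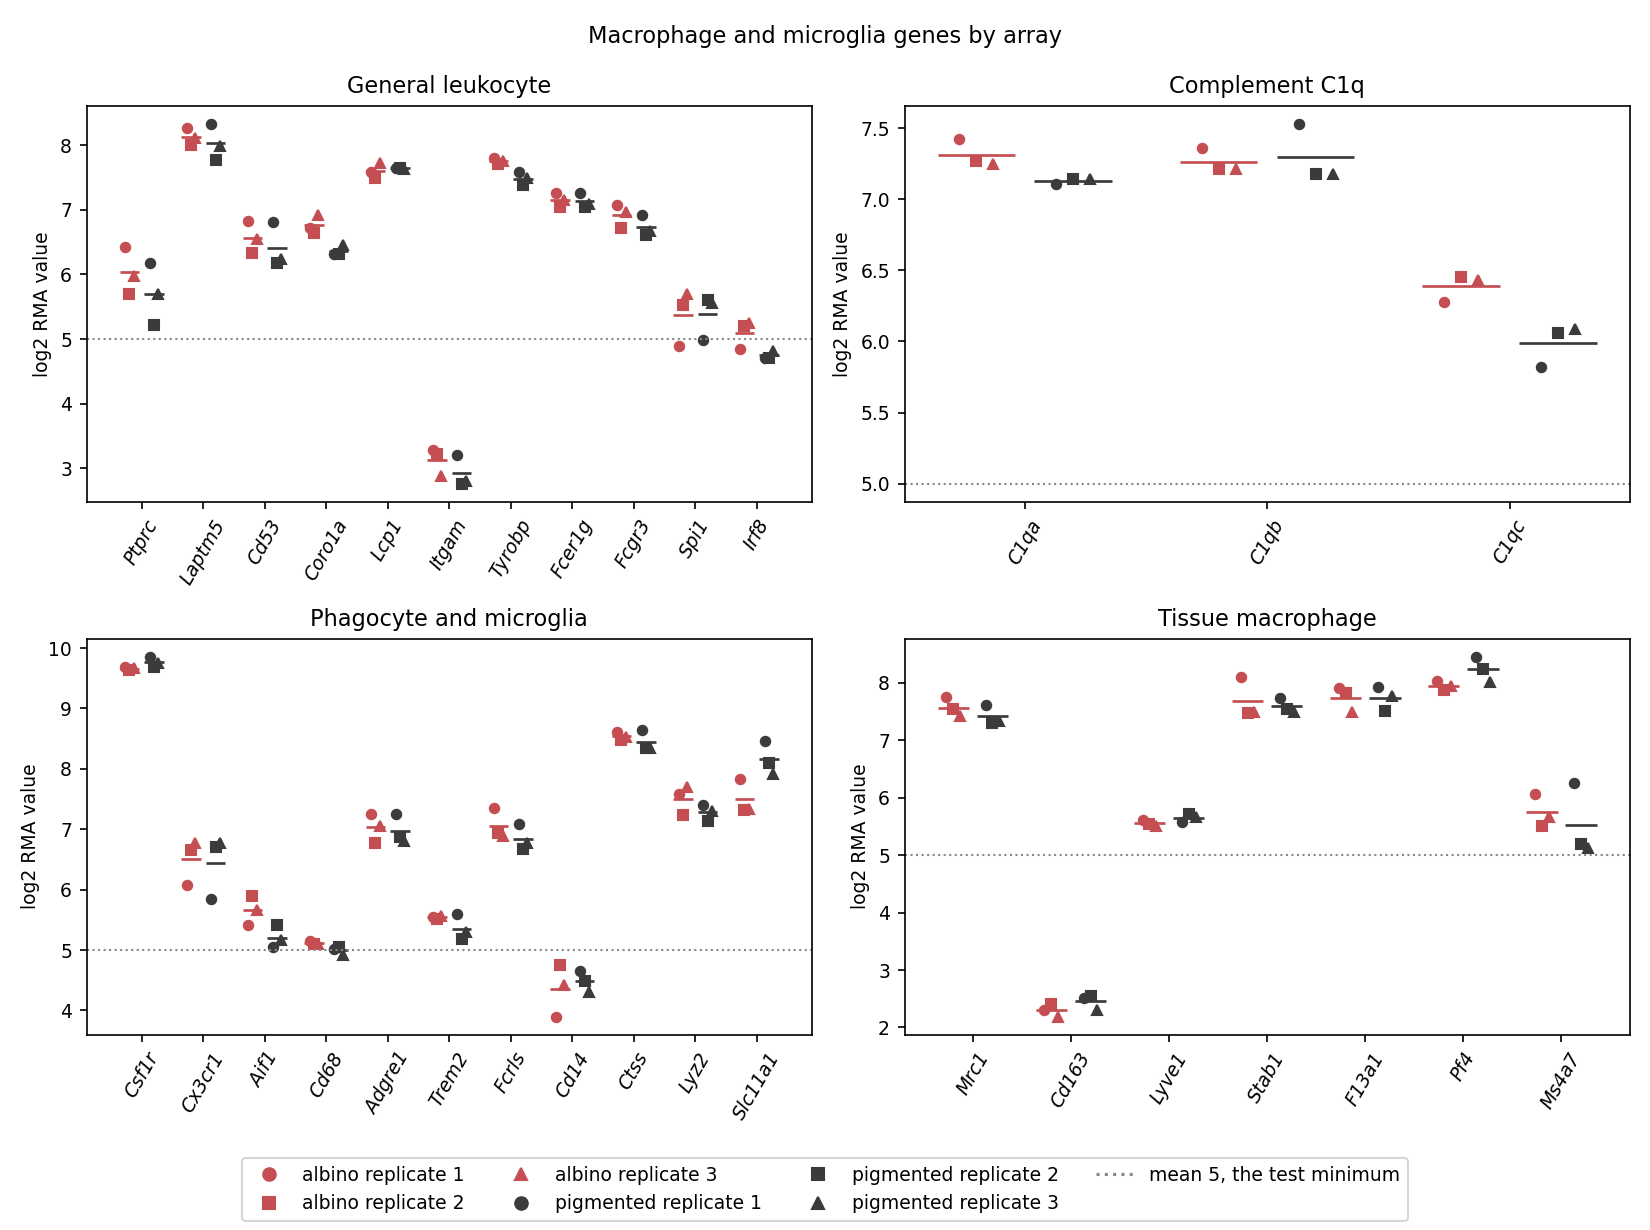
Log2 RMA value (vertical axis) of each of the 32 genes on the 6 arrays, in 4 panels by gene group, with albino arrays in red on the left and pigmented arrays in dark grey on the right of each gene. Horizontal bars are means of 3 arrays and the dotted line is the minimum mean of 5. Coro1a, Tyrobp, C1qa, C1qc, Aif1, Cd68 and the dim Irf8 show every albino array above every pigmented array, and Slc11a1 shows the reverse.

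The genotypes were fully separated at 7 of the 28 genes. All 3 albino arrays lay above all 3 pigmented arrays for Coro1a, Tyrobp, C1qa, C1qc, Aif1 and Cd68 (6 of 28 or 21.4%, where 7.39% of all probe sets were so placed). Cd68 was tested only through its albino arrays, and among genes with both genotype means at the minimum the count was 5 of 27 (18.5%, where 7.31% of such probe sets were so placed). All 3 lay below for Slc11a1 (1 of 28 or 3.57%, where 3.44% were so placed). The count of 6 was 15 without pigmented replicate 1, where the share of all probe sets was 26.4%.

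Coro1a, which encodes the leukocyte actin regulator coronin 1A, had values of 6.71, 6.64 and 6.92 in albino pools, and 6.31, 6.31 and 6.45 in pigmented pools. The groups did not overlap. Its difference was 0.40 (SE 0.11, limma adjusted p = 0.848). A second Coro1a probe set gave only 0.09, with values of 6.60, 6.41 and 6.53 in albino pools and 6.57, 6.34 and 6.36 in pigmented pools. The third Coro1a probe set lay at a mean of 2.70.

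C1qc, which encodes a chain of C1q, read 6.28, 6.45 and 6.43 in albino pools and 5.82, 6.06 and 6.09 in pigmented pools. Every albino array was the higher, by 0.40 on average (SE 0.11, limma adjusted p = 0.871). Aif1, the gene of the calcium-binding protein IBA1 used to stain microglia, read 5.42, 5.89 and 5.67 in albino pools and 5.05, 5.41 and 5.16 in pigmented pools. All its albino arrays were above all its pigmented arrays, narrowly at the nearest pair, and the difference was 0.45 (SE 0.16, limma adjusted p = 0.977). The only Aif1 probe set ends in _s_at, so the gene dropped out when probe sets with that ending were left out.

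Slc11a1 went the other way. It encodes NRAMP1, a metal ion transporter of the phagosome membrane, and read 7.83, 7.32 and 7.33 in albino pools against 8.46, 8.10 and 7.91 in pigmented pools. Every albino array was the lower. Its difference of -0.66 (SE 0.20, a fold of 0.631, limma adjusted p = 0.906) was the largest in size among the 28 genes. It was between -0.83 and -0.51 when each array was left out in turn.

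Promoters of these 4 genes are shown because the genes had the smallest unadjusted p among the tested genes with a promoter in the table used. They come from RefSeq on build GRCm38.p6 and run from 250 bases before the annotated start to 50 after it, 5′ to 3′ on the gene's strand. Capitals mark GAGGAA, the core that PU.1 recognises, or the E-box CATGTG, on either strand.
Coro1a (chr7:126704767-126705066, minus strand): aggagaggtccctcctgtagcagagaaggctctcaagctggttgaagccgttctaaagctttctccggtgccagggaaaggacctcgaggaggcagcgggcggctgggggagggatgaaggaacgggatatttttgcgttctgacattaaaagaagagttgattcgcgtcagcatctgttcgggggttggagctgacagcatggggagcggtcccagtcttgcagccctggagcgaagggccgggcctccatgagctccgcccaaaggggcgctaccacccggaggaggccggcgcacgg
C1qc (chr4:136892865-136893164, minus strand): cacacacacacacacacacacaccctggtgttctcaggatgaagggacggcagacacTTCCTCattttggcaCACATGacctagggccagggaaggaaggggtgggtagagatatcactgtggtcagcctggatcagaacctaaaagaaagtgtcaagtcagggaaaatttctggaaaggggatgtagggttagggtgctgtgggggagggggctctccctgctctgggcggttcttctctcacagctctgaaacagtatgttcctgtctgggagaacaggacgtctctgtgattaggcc
Slc11a1 (chr1:74374953-74375252, plus strand): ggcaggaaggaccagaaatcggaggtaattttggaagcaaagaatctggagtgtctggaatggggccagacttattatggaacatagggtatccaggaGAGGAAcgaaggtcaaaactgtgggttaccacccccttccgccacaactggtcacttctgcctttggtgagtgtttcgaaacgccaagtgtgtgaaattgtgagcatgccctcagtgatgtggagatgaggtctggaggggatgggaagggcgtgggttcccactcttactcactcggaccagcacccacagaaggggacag
Aif1 (chr17:35176003-35176302, minus strand): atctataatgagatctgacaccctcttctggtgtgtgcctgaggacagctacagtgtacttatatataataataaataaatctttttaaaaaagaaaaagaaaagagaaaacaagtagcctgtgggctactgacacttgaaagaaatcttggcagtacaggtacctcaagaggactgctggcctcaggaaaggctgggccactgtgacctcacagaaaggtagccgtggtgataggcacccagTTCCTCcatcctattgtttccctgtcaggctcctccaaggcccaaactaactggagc

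GAGGAA occurred once each in the windows of C1qc, Slc11a1 and Aif1, at bases -193 to -188, -152 to -147 and -7 to -2 from the start. C1qc also held CATGTG, at bases -178 to -173. The Coro1a window held none of the motifs searched. Of the 32 genes, 25 had a promoter in the table, and 18 of these held GAGGAA on either strand (72%). Over all 27025 genes with a window of that length the share was 28.3%. By group these were 5 of 9 general leukocyte genes, 2 of 2 C1q genes (C1qb and C1qc), 6 of 8 further phagocyte genes and 5 of 6 tissue macrophage genes. The ETS-IRF composite motif was found in 1 of 25 windows (Cd68), against 2.79% of all, and there it overlapped a GAGGAA match. CATGTG was found in 5 of 25 (20.0%, against 14.1%) and CACGTG in 0 of 25 (against 7.24%). The median GC content was 50.3% for the 25 windows and 52.7% for all. A match is a description of these letters and not a binding site.

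The general leukocyte genes had a median difference of 0.16 over 9 tested genes, with 7 higher and 2 lower in albino pools. Array means of the 9 were 6.98, 6.79 and 6.98 in albino pools and 6.89, 6.64 and 6.76 in pigmented pools, so the ranges overlapped. With the Y-linked covariate the median was -0.06. The part of the muscle RNA and of the Y-linked difference in these values was not tested.

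Adaptor and receptor genes that signal through immunoreceptor tyrosine motifs (ITAMs) stood in this group. Tyrobp, the gene of the adaptor DAP12 that pairs with TREM2, read 7.80, 7.71 and 7.75 in albino pools and 7.58, 7.38 and 7.49 in pigmented pools. The groups were apart, by 0.27 (SE 0.09, limma adjusted p = 0.977), or by 0.18 with the Y-linked covariate. Fcer1g, the gene of the Fc receptor gamma chain that plays the same part for other receptors, read 7.26, 7.05 and 7.15 in albino pools and 7.26, 7.05 and 7.09 in pigmented pools. Arrays of the same number were nearly equal there, with a difference of 0.02 (95% confidence interval -0.23 to 0.27). Fcgr3, an activating receptor gene for immunoglobulin G, read 7.07, 6.71 and 6.96 in albino pools and 6.92, 6.61 and 6.67 in pigmented pools. The groups overlapped, with a difference of 0.18 (SE 0.14).

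Surface and cytoskeletal genes shared by most leukocytes followed. Ptprc, which encodes the phosphatase CD45, read 6.43, 5.69 and 5.97 in albino pools and 6.17, 5.21 and 5.69 in pigmented pools. Every same-numbered pair was higher in albino, but the groups overlapped and the difference of 0.34 had an SE of 0.28. Leaving out pigmented replicate 2 made it 0.10, and the Y-linked covariate made it -0.07. Cd53, a tetraspanin gene, read 6.33 to 6.83 in albino pools and 6.17 to 6.81 in pigmented pools, a difference of 0.16 (SE 0.21). Laptm5, a lysosomal membrane protein gene of blood cells, differed by 0.09 (SE 0.16), and its other tested probe sets gave 0.08, -0.03 and -0.36. The probe set at -0.36 read 5.42, 5.31 and 5.52 in albino pools and 5.85, 5.76 and 5.73 in pigmented pools. Its groups did not overlap, and its unadjusted limma p was 0.00787. Lcp1, which encodes the actin-bundling protein L-plastin, read 7.49 to 7.73 in albino pools and 7.63 to 7.65 in pigmented pools, a difference of -0.04 (SE 0.10). A second tested Lcp1 probe set gave 0.10. On the probe sets used, the groups of all these genes overlapped.

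Among the lineage factor genes, Spi1 overlapped between the genotypes, and the dim Irf8 did so on 1 of its probe sets. Spi1 read 4.89, 5.52 and 5.70 in albino pools and 4.99, 5.60 and 5.56 in pigmented pools. Both replicate 1 arrays were the low ones, and the genotypes differed by -0.01 (95% confidence interval -0.63 to 0.60). Irf8, a partner factor of PU.1, was below the test minimum at 4.85, 5.20 and 5.25 in albino pools and 4.71, 4.71 and 4.82 in pigmented pools. Its groups did not overlap. A second Irf8 probe set, also below the minimum, read 5.24, 4.76 and 4.82 in albino pools and 4.91, 4.38 and 4.76 in pigmented pools, and there the groups overlapped. The integrin gene Itgam (CD11b) read 2.88 to 3.28 in albino pools and 2.76 to 3.20 in pigmented pools, also below the minimum.

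The 3 C1q genes neighbour each other on chromosome 4 and encode the A, B and C chains of 1 protein. C1qa read 7.42, 7.27 and 7.25 in albino pools and 7.11, 7.14 and 7.14 in pigmented pools. The groups were apart by 0.18 (SE 0.09, limma adjusted p = 0.999), which was 0.13 after cyclic loess. C1qb read 7.36, 7.21 and 7.21 in albino pools and 7.53, 7.18 and 7.18 in pigmented pools, a difference of -0.04 (SE 0.13).

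The C1qb probe sets disagreed. The probe set used ends in _x_at, a suffix for probes that may bind related transcripts, and another such probe set gave -0.03. The third C1qb probe set carries no such suffix and read 7.42, 7.17 and 7.16 in albino pools and 7.12, 6.86 and 6.88 in pigmented pools. Its groups did not overlap, and its difference was 0.30, with an unadjusted limma p of 0.0476. With that probe set the median of the 3 genes was 0.30, where it was 0.18 with the probe set of the highest mean.

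**Figure D2:**
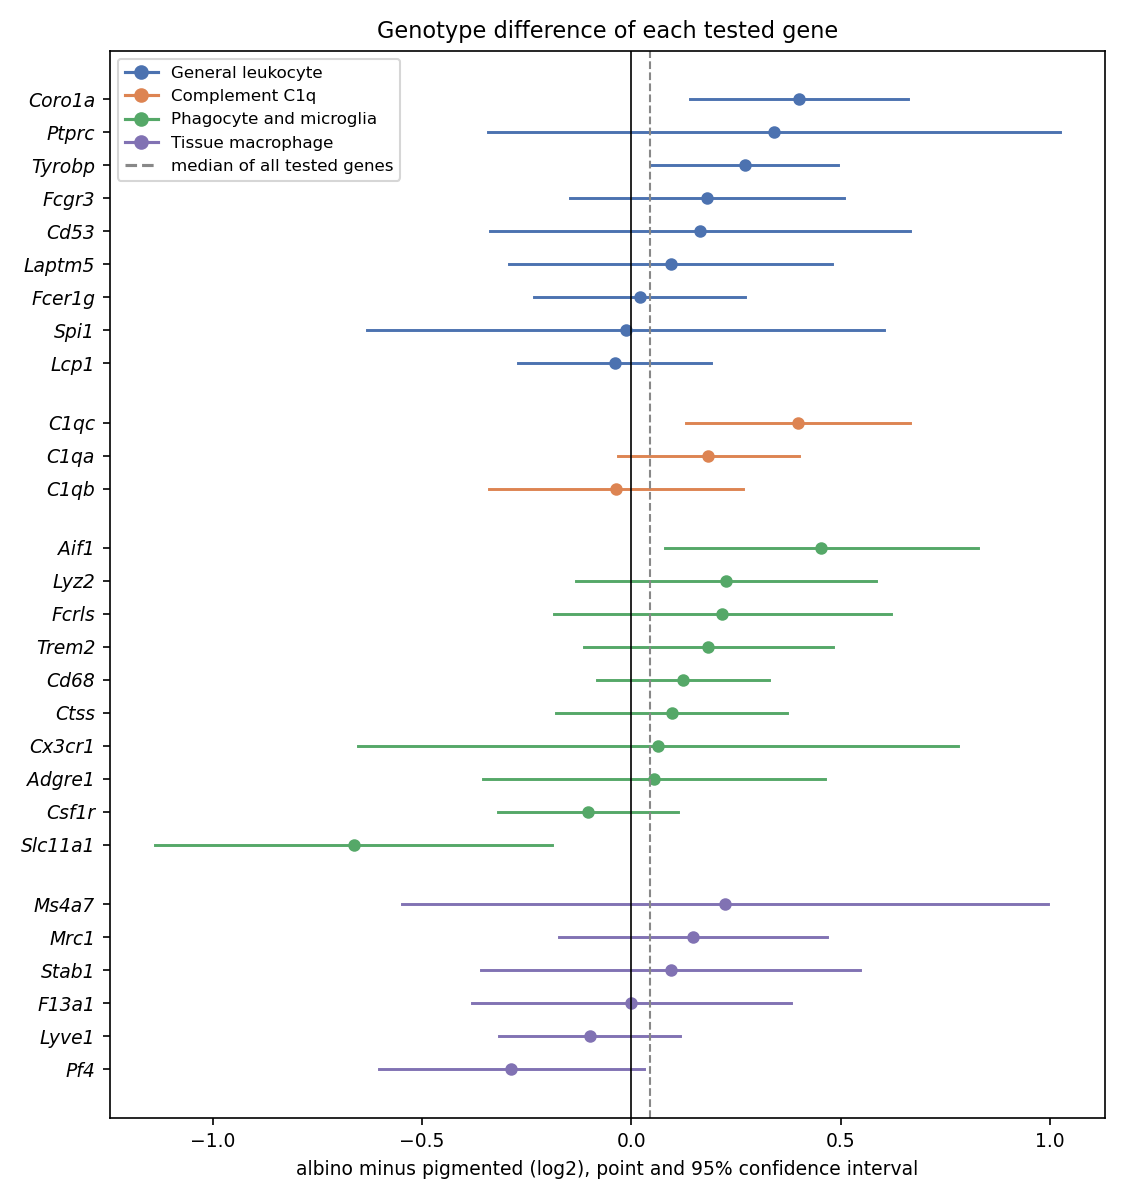
Difference albino minus pigmented (horizontal axis, log2 units) of the 28 tested genes, as limma estimates with 95% confidence intervals, coloured by gene group. The dashed line is the median of all tested genes (0.04). The intervals of Coro1a, Tyrobp, C1qc and Aif1 lie above 0 and that of Slc11a1 lies below it, before any adjustment for the number of probe sets.

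Further phagocyte and microglia genes had a median difference of 0.11 over 10 tested genes, with 8 higher and 2 lower in albino pools. Csf1r, the receptor gene on which macrophage survival depends, read 9.68, 9.63 and 9.67 in albino pools and 9.86, 9.68 and 9.75 in pigmented pools. Its difference was -0.10 (95% confidence interval -0.32 to 0.11), and the other probe sets of Csf1r gave -0.06 and 0.02. Cx3cr1, the fractalkine receptor gene, read 6.07, 6.66 and 6.77 in albino pools and 5.84, 6.70 and 6.77 in pigmented pools. As with Spi1, both replicate 1 arrays were low. The genotype difference of Cx3cr1 was 0.06 (SE 0.30), or -0.24 without pigmented replicate 1.

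Among genes of engulfment and digestion, Cd68 and Slc11a1 (above) had groups that did not overlap. Cd68, a lysosomal glycoprotein gene, read 5.15, 5.10 and 5.10 in albino pools and 5.01, 5.05 and 4.92 in pigmented pools, a difference of 0.12 (SE 0.09). Its pigmented mean of 4.99 lay under the minimum. Lyz2, the macrophage lysozyme gene, read 7.59, 7.23 and 7.70 in albino pools and 7.40, 7.13 and 7.31 in pigmented pools, a difference of 0.23 (SE 0.15). Ctss, the cathepsin S gene, read 8.48 to 8.61 in albino pools and 8.34 to 8.64 in pigmented pools, a difference of 0.10 (SE 0.12). Both overlapped between the genotypes.

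Receptor genes of microglia overlapped as well. Trem2, a lipid-sensing receptor gene, read 5.55, 5.51 and 5.56 in albino pools and 5.59, 5.18 and 5.30 in pigmented pools, a difference of 0.18 (SE 0.12). Fcrls, an Fc receptor-like gene of mouse microglia, read 7.35, 6.94 and 6.89 in albino pools and 7.08, 6.67 and 6.78 in pigmented pools, a difference of 0.22 (SE 0.17). With the Y-linked covariate the values were 0.08 for Lyz2, 0.02 for Trem2 and 0.07 for Fcrls.

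Adgre1, which encodes the surface protein F4/80, read 7.25, 6.78 and 7.06 in albino pools and 7.25, 6.87 and 6.81 in pigmented pools. The groups overlapped and differed by 0.05 (SE 0.17), a value that was -0.06 without albino replicate 1. Cd14, a co-receptor gene for bacterial lipopolysaccharide, read 3.90, 4.75 and 4.42 in albino pools and 4.66, 4.48 and 4.31 in pigmented pools, below the test minimum.

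Tissue macrophage genes had a median difference of 0.05 over 6 tested genes, against 0.04 over all tested genes. Of the 6, 3 were higher, 2 lower and 1 equal. Array means were 7.25, 6.96 and 6.92 in albino pools and 7.26, 6.92 and 6.91 in pigmented pools. None of the 6 had groups that did not overlap.

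Mrc1, the mannose receptor gene, read 7.75, 7.54 and 7.42 in albino pools and 7.62, 7.31 and 7.34 in pigmented pools. Each same-numbered pair was higher in albino, by 0.15 on average (SE 0.13). F13a1, which encodes the A subunit of coagulation factor XIII, read 7.91, 7.82 and 7.49 in albino pools and 7.93, 7.51 and 7.78 in pigmented pools. Its genotype means were equal, at 7.74 and 7.74, with a 95% confidence interval of the difference from -0.38 to 0.38. Stab1, a scavenger receptor gene that some vessel linings also express, read 8.10, 7.47 and 7.49 in albino pools and 7.74, 7.55 and 7.49 in pigmented pools. Its difference was 0.09 (SE 0.19), and leaving out albino replicate 1 made it -0.11.

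Pf4, the gene of platelet factor 4, is made by megakaryocytes and by embryonic macrophages. It read 8.04, 7.88 and 7.94 in albino pools and 8.46, 8.24 and 8.02 in pigmented pools. Every same-numbered pair was lower in albino, and the groups overlapped by 1 albino array. The difference was -0.29 (SE 0.13, limma adjusted p = 0.999), or -0.18 without pigmented replicate 1. Megakaryocyte and platelet markers were lower in 5 of 6 tested genes, with a median of -0.09 and array means of 6.17 to 6.21 in albino pools and 6.21 to 6.37 in pigmented pools. Itga2b differed by -0.13 (SE 0.09), Treml1 by -0.11 (SE 0.09) and Itgb3 by -0.18 (SE 0.15). Their part in the value of Pf4 was not tested.

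Lyve1, a hyaluronan receptor gene of tissue macrophages and lymphatic vessels, read 5.61, 5.55 and 5.50 in albino pools and 5.57, 5.72 and 5.67 in pigmented pools, a difference of -0.10 (SE 0.09). Of 4 lymphatic endothelium genes, Pdpn differed by -0.11 (SE 0.12), Flt4 by -0.10 (SE 0.13) and Reln by 0.02 (SE 0.11), and Prox1 was below the minimum at a mean of 3.83. Ms4a7, a membrane protein gene of macrophages, read 6.07, 5.51 and 5.66 in albino pools and 6.25, 5.19 and 5.13 in pigmented pools. Its replicate 1 arrays were the highest of each genotype, and its difference of 0.22 (SE 0.32) became 0.59 when pigmented replicate 1 was left out, while adding the Y-linked covariate gave -0.15. Cd163, the haemoglobin scavenger receptor gene, lay between 2.19 and 2.55 on all 6 arrays.

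**Figure D3:**
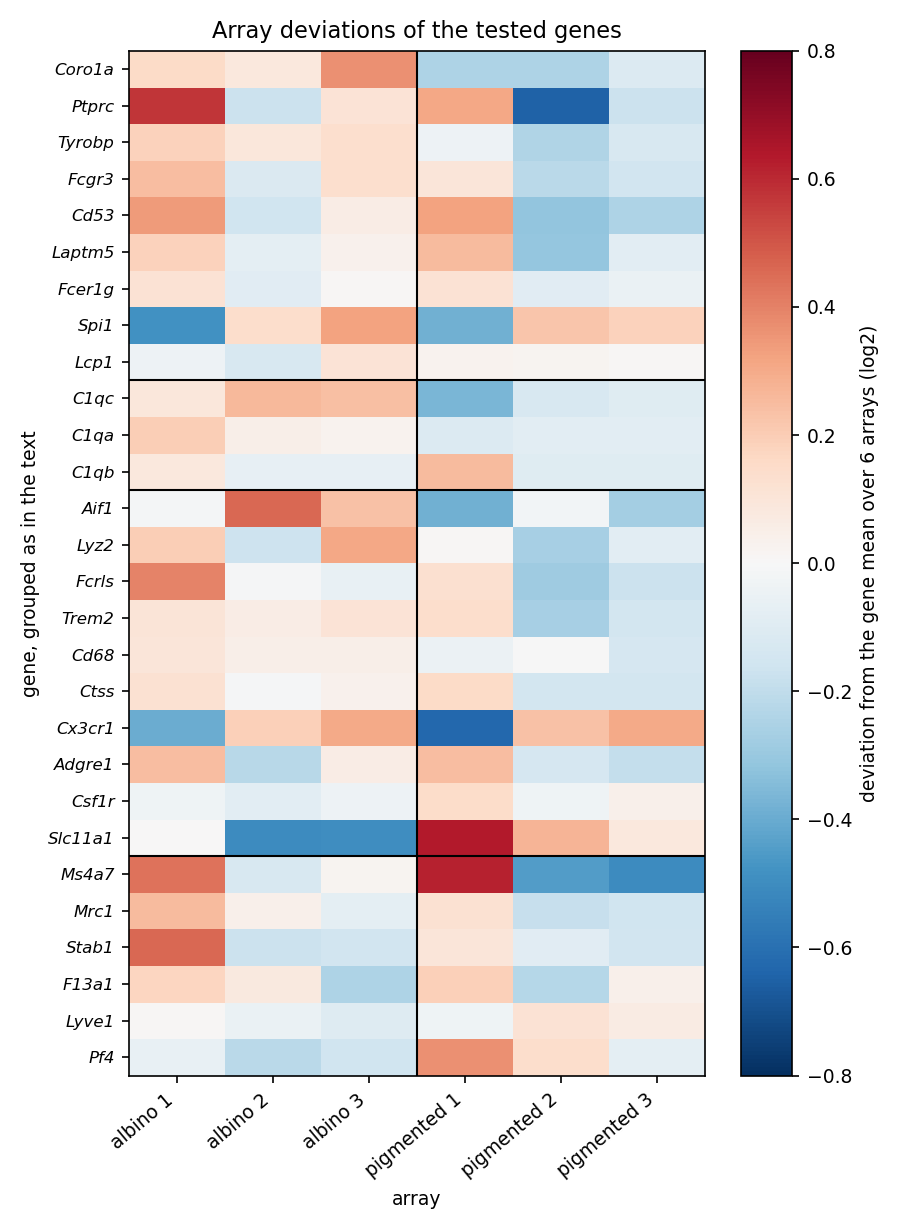
Deviation of each array from the gene's mean over 6 arrays (colour, log2 units, red higher and blue lower) for the 28 tested genes in rows, with the albino arrays in the 3 left columns and the pigmented arrays in the 3 right columns. Replicate 1 arrays of both genotypes share a pattern, with Ptprc, Cd53, Adgre1 and Ms4a7 high and Spi1 and Cx3cr1 low.

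Arrays with the same replicate number deviated together. In albino pools replicate 1 lay above the mean of the other arrays for 22 of 28 genes, and in pigmented pools for 21 of 28, with 20 genes higher in both. The median excess was 0.14 in albino pools and 0.25 in pigmented pools, and over all tested genes it was 0.18 in each. The shift was thus not particular to the macrophage genes, and the share of all tested genes so placed was not counted. Ms4a7 stood higher by 0.48 in albino replicate 1 and by 1.09 in pigmented replicate 1, and Ptprc by 0.60 and 0.72. Genes lower in both were Spi1, at -0.72 and -0.59, Cx3cr1, at -0.65 and -0.90, Aif1, C1qc and Coro1a. The microglia genes thus lay on both sides, with Adgre1 and Fcrls higher in both. Without both replicate 1 arrays the median difference between the genotypes was 0.14 over the 28 genes.

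Pairs were formed by replicate number, though the labels name no pairs and replicates 2 and 3 were not told apart (below). Taken by these same-numbered pairs, 15 of 28 genes were higher in albino replicate 1, 18 in albino replicate 2 and 21 in albino replicate 3. Over all tested genes the shares were 58%, 60% and 59%, so the first count lay below that share and the second near it. In all 3 pairs 12 genes were higher (42.9%), against 30.7% of all tested genes. These were 5 general leukocyte genes, 2 C1q genes, 4 further phagocyte genes and Mrc1. The genes lower in all 3 pairs were Slc11a1, Csf1r and Pf4.

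Other genes of macrophage signalling were listed alongside and none of those tested passed the adjusted threshold. Among other Fc receptors and genes of ITAM signalling 1 of 8 tested genes was higher and 7 lower in albino pools, with a median of -0.13. Fcgr2b, the inhibitory Fc receptor gene, differed by -0.30 (SE 0.19), Plcg2, a phospholipase gene downstream of SYK, by -0.25 (SE 0.15), and Ptpn6, the gene of the phosphatase SHP-1, by -0.16 (SE 0.17). Their groups overlapped.

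Among ligands, Csf1, which encodes the main ligand of CSF1R, differed by 0.06 (SE 0.18), and Il34, the gene of its other ligand, was below the minimum at a mean of 3.76. The receptor chain gene Csf2ra read 6.38, 6.30 and 6.33 in albino pools and at most 6.25 in pigmented pools, with no overlap and a difference of 0.24 (SE 0.10). The shared chain gene Csf2rb read 5.18, 5.26 and 5.43 in albino pools and 5.53, 5.37 and 5.64 in pigmented pools, lower in each same-numbered pair, with a difference of -0.22 (SE 0.12). The chemokine gene Cxcl12 differed by 0.23 (SE 0.25). Of the myeloid transcription factor genes 2 of 8 were higher. Fli1, an ETS factor gene of blood and endothelial cells, read 8.61, 8.47 and 8.61 in albino pools against 9.11, 9.07 and 8.80 in pigmented pools, a difference of -0.43 (SE 0.12, limma adjusted p = 0.820). Nfe2l2, a stress response factor gene, differed by -0.23 (SE 0.16) and Ikzf1, a lymphoid and myeloid factor gene, by 0.16 (SE 0.16). Blood endothelium markers had a median of -0.06, with 4 of 10 higher, and Cldn5 at -0.19 (SE 0.09), Plvap at -0.20 (SE 0.10) and Emcn at -0.18 (SE 0.10).

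The remaining complement genes had a median of 0.03 over 4 tested, with C3ar1, the receptor gene for the C3a fragment, at 0.20 (SE 0.12) and Serping1, the gene of the C1 inhibitor, at 0.15 (SE 0.09), and C2, a classical pathway protease gene, at -0.09 (SE 0.13). Of 10 chemokine and cytokine genes 7 were below the minimum, among them Il1b, Tnf and Il10. Ccl4, the gene of a macrophage inflammatory protein, read 5.24, 5.22 and 5.07 in albino pools and 5.51, 5.46 and 5.39 in pigmented pools, a difference of -0.28 (SE 0.09, limma adjusted p = 0.972). Igf1 differed by 0.16 (SE 0.13) and Ccl24 by -0.16 (SE 0.19). Phagolysosome genes, which most cells express, had a median of 0.03 over 13 tested genes, with Lamp2 at -0.15 (SE 0.08), Ctsz at 0.11 (SE 0.09) and Ctsb at 0.11 (SE 0.12).

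**Figure D4:**
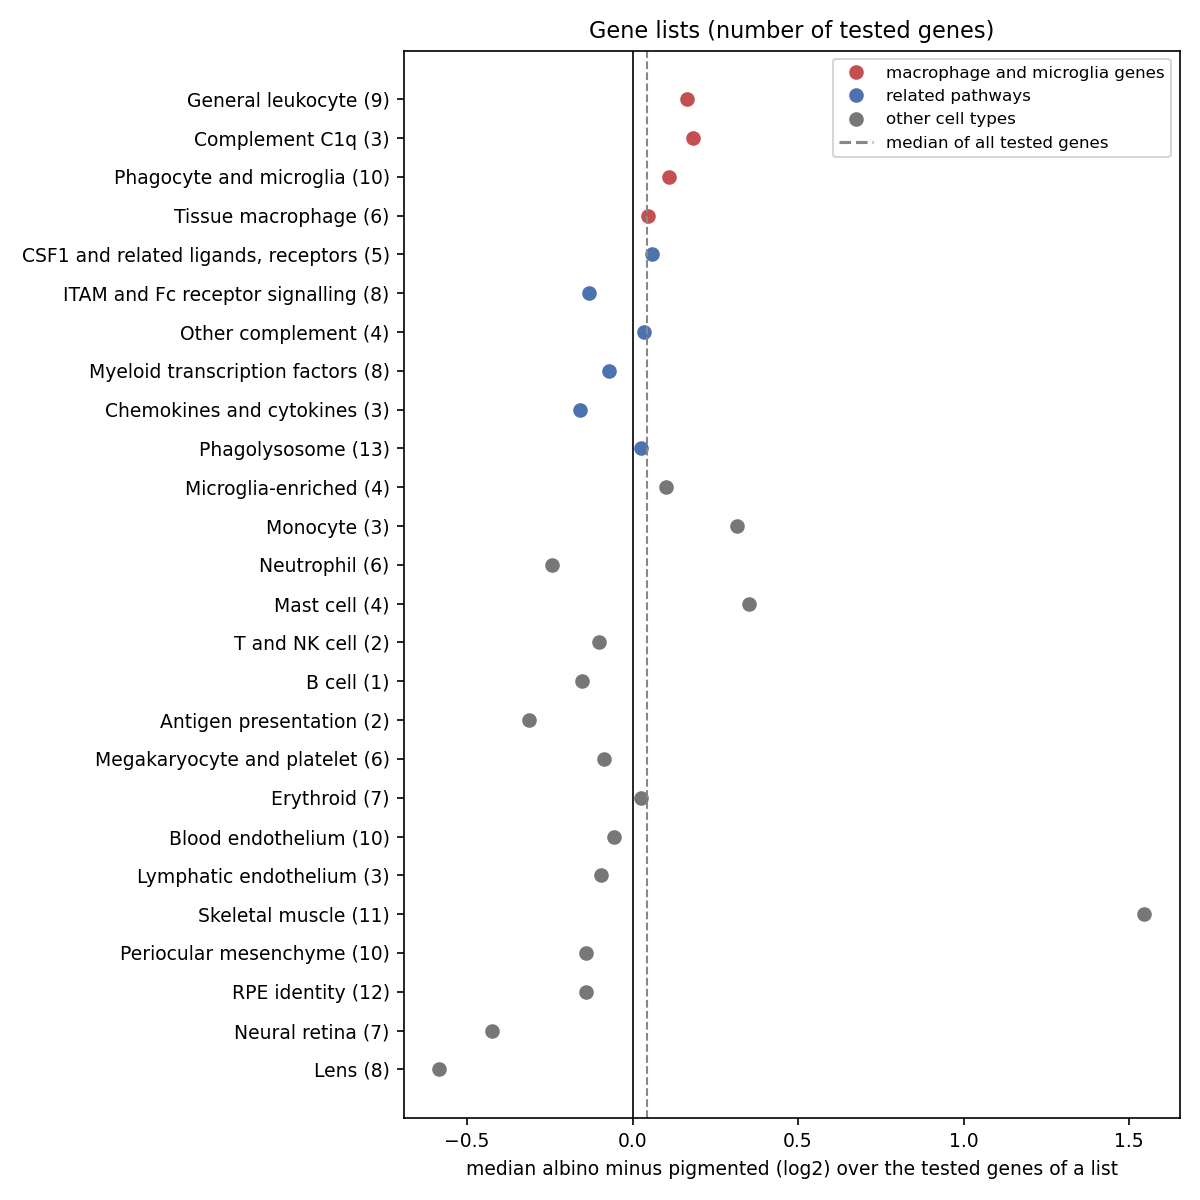
Median difference albino minus pigmented (horizontal axis, log2 units) over the tested genes of each list, with the number tested in brackets. Macrophage and microglia gene groups (red) lie between 0.05 and 0.18, related pathways (blue) between -0.16 and 0.06, and other cell types (grey) between -0.58 for lens and 1.55 for skeletal muscle.

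Markers of other leukocytes were read beside the macrophage genes. Of 8 genes enriched in adult microglia, 4 were tested: Sparc at 0.22 (SE 0.12), Olfml3 at 0.14 (SE 0.12), Siglech at -0.32 (SE 0.42) and Tmem119 at 0.07 (SE 0.19). Sparc, Olfml3 and Tmem119 are also made by mesenchyme. The other 4, P2ry12, P2ry13, Gpr34 and Slc2a5, were below the minimum, with means of 3.59, 3.98, 3.72 and 4.96. Of the T and NK cell genes, Cd4 (mean 5.63) differed by -0.18 (SE 0.11) and Cd8a (mean 5.07) by -0.02 (SE 0.13), and the other 4, Cd3e, Cd3d, Cd3g and Nkg7, were below the minimum. Of the B cell genes, Cd79b read 4.96, 5.01 and 4.85 in albino pools and 5.13, 5.08 and 5.07 in pigmented pools, with no overlap and a difference of -0.15 (SE 0.09). The other 4, Cd79a, Ms4a1, Pax5 and Blnk, were below the minimum. Of 8 antigen presentation genes 6 were below it. H2-Eb1, a class II chain gene, read 5.18, 5.03 and 4.95 in albino pools and 5.45, 5.23 and 5.32 in pigmented pools, with no overlap and a difference of -0.28 (SE 0.11, limma adjusted p = 0.999). Cd74, the invariant chain gene, differed by -0.35 (SE 0.16).

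Mast cell markers were higher in 3 of 4 tested genes, with array means of 7.36 to 7.86 in albino pools and 6.96 to 7.56 in pigmented pools. Cpa3, the mast cell carboxypeptidase gene, read 8.72, 7.98 and 8.28 in albino pools and 8.50, 7.35 and 7.66 in pigmented pools, a difference of 0.49 (SE 0.33). Cma1, a chymase gene, differed by 0.67 (SE 0.30) and Gata2 by 0.22 (SE 0.15). Fcer1g and Ptprc are expressed by mast cells as well, and the part of mast cells in their values was not tested.

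Monocyte markers were higher in 3 of 3 tested genes, with Ccr2 below the minimum at a mean of 4.59. Vcan, at 0.73 (SE 0.15), and Itga4, at 0.32 (SE 0.10), are also made by mesenchyme and muscle progenitors. Plac8 differed by 0.20 (SE 0.22). On average, neutrophil markers set albino replicate 3 apart, with a mean of 7.75 over 6 tested genes. There albino replicates 1 and 2 had 6.25 and 5.96 and the pigmented pools 6.55 to 7.06. S100a8 read 7.43, 7.63 and 9.45 in albino pools and 8.52, 8.41 and 9.04 in pigmented pools. Mpo, the myeloperoxidase gene, read 5.77, 4.76 and 6.35 in albino pools and 6.33, 5.76 and 6.34 in pigmented pools. It did not set albino replicate 3 apart from pigmented replicates 1 and 3. The difference was -0.52 (SE 0.40) for Mpo and 0.45 (SE 0.52) for Ngp. None of the tested genes of these leukocyte lists passed the adjusted threshold.

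Neural retina markers were lower in 7 of 7 tested genes, with a median of -0.42. Lens markers were lower in 8 of 8, with albino replicate 3 at a mean of 5.58 and the other arrays between 7.42 and 7.65. Periocular mesenchyme markers had a median of -0.14 over 10 tested genes, with 3 higher and 7 lower. Erythroid markers had one of 0.03 over 7, with 4 higher and 3 lower. The part of these tissues in the macrophage values was not tested.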

How the data were processed

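Total RNA (100 ng) of each pool was hybridised to an Affymetrix mouse expression array. The deposited values are log2 RMA values, made by the authors with Affymetrix Expression Console 1.1, per the submitters' processing notes. They carry 2 decimals. The labels do not say if RMA was run on the 6 arrays together. The table has 45101 probe sets: 64 controls, 34945 naming 1 gene, 932 several and 9160 none. Array medians were 5.18 to 5.21, and no pair of arrays was identical. The number of arrays, 3 a genotype, limits the precision.

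Probe sets with a mean of at least 5 (23591, without controls) were fitted in limma 3.58.1 under R 4.3.3 (lmFit, eBayes, two-sided, Benjamini-Hochberg, threshold 0.05). The code of the fit was checked on simulated data, with independent noise on each array and shifts larger than any member difference. That check did not cover deviations shared between arrays. Same-numbered arrays deviated together (correlations of deviations 0.863, 0.687 and 0.448), so the replicate number was also used as a block. Albino 2 correlated slightly better with pigmented 3 (0.693) and albino 3 with pigmented 2 (0.546), so the numbers 2 and 3 are not told apart and the block mainly separates replicate 1. Other alternatives changed the filter, scaling, weights, variance prior, probe set, Y-linked covariate and arrays.

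The members and lists were chosen with earlier results of these data known. All members are named, and of each pathway and leukocyte or vessel list up to 3 tested genes with the smallest unadjusted p; muscle, erythroid and eye tissue lists are given by their counts and medians. Csf1, Tmem119 and genes below the minimum were named outside that rule, after their values were seen. Of 214 list entries 193 were annotated. Promoters were matched by symbol to RefSeq with Python 3.11.15.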

Additional observations from a re-analysis of the deposited data

How the results depend on the processing

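No member and no probe set passed the adjusted threshold under any of the 17 alternatives; the smallest adjusted p of a member was 0.0975, with array weights. Of the 28 members, 15 kept their direction under every alternative in which they were run, 12 reversed under at least 1, and F13a1 had a difference of 0. Fewer members were run with a minimum mean of 6 (21), with the mean of all probe sets (24) and without _x_at and _s_at probe sets (26). With the replicate block, 9 members were higher and 2 lower at an unadjusted p under 0.05 (11.9% and 6.12% of all probe sets). Without the block the counts were 4 and 1, and directions were the same. These counts were 7 and 3 with array weights (10.2% and 4.72% of all probe sets) and 8 and 2 without both replicate 1 arrays (8.46% and 4.48%), where the main shares were 3.22% and 1.46%. The higher count was 2 with the Y-linked covariate (1.96% of all probe sets), and the lower count was 2 after cyclic loess (2.98%). Of the 26 members run without _x_at and _s_at probe sets, 2 were lower at that threshold (1.18% of all probe sets). Members with every albino array above every pigmented array were 15 without both replicate 1 arrays, where 31.2% of all probe sets were so placed, against 7.39% with all arrays. The C1q median was 0.13 after loess, 0.13 with weights, 0.30 without _x_at and _s_at probe sets and 0.12 without replicate 1. The leukocyte median was 0.028 with the mean of all probe sets and -0.060 with the covariate, which gave 0.045 for phagocyte genes and 0.0062 over all members. The tissue macrophage median, 0.047 in the main run, was -0.0088 after loess, -0.023 with weights and -0.092 with the covariate. It was -0.015 without both replicate 1 arrays, 0 with the mean of all probe sets and 0.053 with arrays centred on their medians.

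Reversed values were as follows. Loess gave -0.036 for Fcer1g and -0.0014 for Adgre1. Weights gave 0.039 for Spi1, 0.021 for C1qb, -0.0048 for Cx3cr1 and -0.021 for Stab1. The mean of all probe sets gave -0.055 for Laptm5, 0.028 for Lcp1, 0.077 for C1qb and -0.042 for Cx3cr1. Without _x_at and _s_at probe sets Laptm5 was -0.36 and C1qb 0.30. The covariate gave -0.069 for Ptprc, -0.14 for Laptm5, -0.082 for Cd53, -0.064 for Fcer1g, 0.19 for Spi1, -0.091 for Adgre1, -0.010 for Ctss and -0.15 for Ms4a7. Without replicate 1 Spi1 was 0.03, C1qb 0.03, Cx3cr1 -0.02 and Stab1 -0.04. The cause of these shifts was not tested.

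With each array left out in turn, the medians were 0.08 to 0.28 for leukocyte genes, 0.13 to 0.22 for C1q genes, 0.089 to 0.19 for phagocyte genes, -0.10 to 0.16 for tissue macrophage genes and 0.06 to 0.19 over all members. The unadjusted counts were 2 to 5 higher (1.7% to 4.62% of all probe sets) and 1 to 2 lower (0.699% to 1.76%). Every albino array lay above every pigmented array for 6 to 15 members, where 9.11% to 26.4% of all probe sets were so placed. The 15 and the 26.4% were without pigmented replicate 1. The genes that reversed ranged from -0.037 to 0.24 (Laptm5), -0.11 to 0.015 (Lcp1), -0.033 to 0.083 (Fcer1g), -0.21 to 0.23 (Spi1), -0.10 to 0.08 (C1qb), -0.24 to 0.28 (Cx3cr1), -0.057 to 0.19 (Adgre1) and -0.11 to 0.20 (Stab1).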
